A study of Homo sapiens with 12 samples.

Results

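CD40, TNFRSF14, FAS, CD70, CD80, CD86, ICOSLG, CD274, CD48 and CD58 encode surface molecules through which a B cell meets a T cell. They were taken by name, 10 of the 28278 genes in the count table, and 4 of them (CD40, CD48, CD70 and CD86) were among the 8813 genes with enough counts to be tested. RNA was counted by MARS-seq, which reads barcoded cDNA near the 3′ ends of transcripts, in OCI-Ly7, a human diffuse large B-cell lymphoma line whose source the labels give as pleural effusion. The mutant lines were made with CRISPR over the OCI-Ly7 background and none was treated. The EZH2 mutant has the genotype EZH2 Y646N, a gain-of-function change in the Polycomb enzyme that methylates histone H3 at silenced genes. The KMT2D mutant is kmt2d-/- and lacks a histone H3 methyltransferase of enhancers, the double mutant is kmt2d-/- + EZH2 Y646N, and the wild type is OCI-Ly7 itself. The EZH2 mutant was read in 2 libraries and each of the other lines in 3, with 1118710 to 3107871 counts per library. The labels say neither whether a line is 1 clone nor whether replicates were separate cultures, so every p-value rests on the spread between libraries, which may be technical.

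A T cell that recognises its antigen on a B cell needs further signals from the same contact. CD80 and CD86 give them through CD28, CD70 through CD27 and ICOSLG through ICOS, while CD40 on the B cell receives the answer from CD40 ligand on the T cell. CD48 and CD58 hold the cells together, CD274 (PD-L1) and TNFRSF14 (HVEM) can restrain the T cell through PD-1 and BTLA, and FAS lets a T cell with Fas ligand kill the B cell. In germinal centre lymphomas these genes are among those by which tumour cells keep or lose contact with T cells.

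Neither targeted gene checks the labels, because counts near the 3′ end show neither a substitution nor a lesion elsewhere in the gene. EZH2 averaged 64.6 ± 14.6 normalised CPM in EZH2 mutant (SD, n = 2), 65.2 ± 0.606 in KMT2D mutant, 86.9 ± 4.92 in double mutant and 76.9 ± 7.52 in wild-type libraries (n = 3 each). It was called higher in the double mutant than in the KMT2D mutant (log2 0.42, edgeR adjusted p = 0.030), as were 21.2% of all tested genes. KMT2D averaged 30.3 ± 15.4 in the EZH2 mutant (n = 2), and 38.8 ± 3.80 in the KMT2D mutant, 46.2 ± 17.1 in the double mutant and 33.5 ± 9.32 in wild type (n = 3 each). All 8 B cell markers had counts, with sums of 6441 to 10937 CPM per library, although CR2 was at 0 in the EZH2 mutant. The sum of 7 germinal centre markers, of which LMO2 had no count, was 147.5 to 196.9 CPM in EZH2 mutant, 381.9 to 401.2 in KMT2D mutant, 210.1 to 235.0 in double mutant and 391.7 to 419.1 in wild-type libraries. The sum of 14 T and NK cell markers was at most 12.92 CPM in any library, with CD3D, CD8A, CD8B, CD7 and NCAM1 at 0 throughout. EZH2 mutant replicate 1 was the shallowest library and lay farthest out on the first principal component, at 61.3 against 35.1 for replicate 2 of that line.

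Promoter windows, from 250 bases before to 50 after a RefSeq start on GRCh38.p14, were found for 8 of the 10 genes. CD48, with 7330 counts, and its structural relative CD58, with none, differ most plainly in detection, so both windows are shown with each CpG in capitals (both read 5′ to 3′ on the minus strand, CD48 at chr1:160711773-160712072 and CD58 at chr1:116570977-116571276).
CD48: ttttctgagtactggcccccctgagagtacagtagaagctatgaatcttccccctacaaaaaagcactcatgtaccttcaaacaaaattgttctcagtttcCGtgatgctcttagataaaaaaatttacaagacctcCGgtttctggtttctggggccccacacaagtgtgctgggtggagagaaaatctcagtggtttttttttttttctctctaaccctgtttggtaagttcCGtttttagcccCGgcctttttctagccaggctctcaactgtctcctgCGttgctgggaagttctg
CD58: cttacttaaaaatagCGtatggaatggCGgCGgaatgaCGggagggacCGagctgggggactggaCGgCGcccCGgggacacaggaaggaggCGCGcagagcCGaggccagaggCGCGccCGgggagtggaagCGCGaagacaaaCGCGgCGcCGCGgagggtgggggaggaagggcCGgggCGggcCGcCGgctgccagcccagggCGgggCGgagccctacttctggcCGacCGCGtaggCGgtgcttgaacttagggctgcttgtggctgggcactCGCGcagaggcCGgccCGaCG
The CD48 window held 5 CpG and the CD58 window 36, and 87.3% of all 35116 windows held fewer than CD58. ICOSLG is shown beside LOC102723996, a gene elsewhere on chromosome 21, because the windows share 277 of 300 bases as 1 unbroken run, which stands in capitals (ICOSLG at chr21:44240894-44241193 on the minus strand, LOC102723996 at chr21:5022281-5022580 on the plus strand).
ICOSLG: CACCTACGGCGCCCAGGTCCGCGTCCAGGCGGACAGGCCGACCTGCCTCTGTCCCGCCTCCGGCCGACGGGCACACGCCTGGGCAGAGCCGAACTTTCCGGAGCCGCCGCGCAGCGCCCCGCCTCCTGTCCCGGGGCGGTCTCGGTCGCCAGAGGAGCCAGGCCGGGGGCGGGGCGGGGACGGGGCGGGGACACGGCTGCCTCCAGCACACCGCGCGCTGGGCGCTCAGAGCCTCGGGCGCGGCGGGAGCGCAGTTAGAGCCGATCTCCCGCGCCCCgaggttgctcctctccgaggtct
LOC102723996: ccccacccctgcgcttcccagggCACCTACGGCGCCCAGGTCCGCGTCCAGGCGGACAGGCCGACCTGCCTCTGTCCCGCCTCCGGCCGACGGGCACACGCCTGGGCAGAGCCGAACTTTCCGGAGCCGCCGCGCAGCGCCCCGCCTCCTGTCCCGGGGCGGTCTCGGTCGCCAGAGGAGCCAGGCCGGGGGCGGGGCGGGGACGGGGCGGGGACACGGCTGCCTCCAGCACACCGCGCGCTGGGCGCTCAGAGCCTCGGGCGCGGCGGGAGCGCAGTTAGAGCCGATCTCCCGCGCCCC
The ICOSLG window held 42 CpG and that of LOC102723996 held 41. The median over all windows was 14 CpG, with quartiles of 4 and 28.

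**Figure D1:**
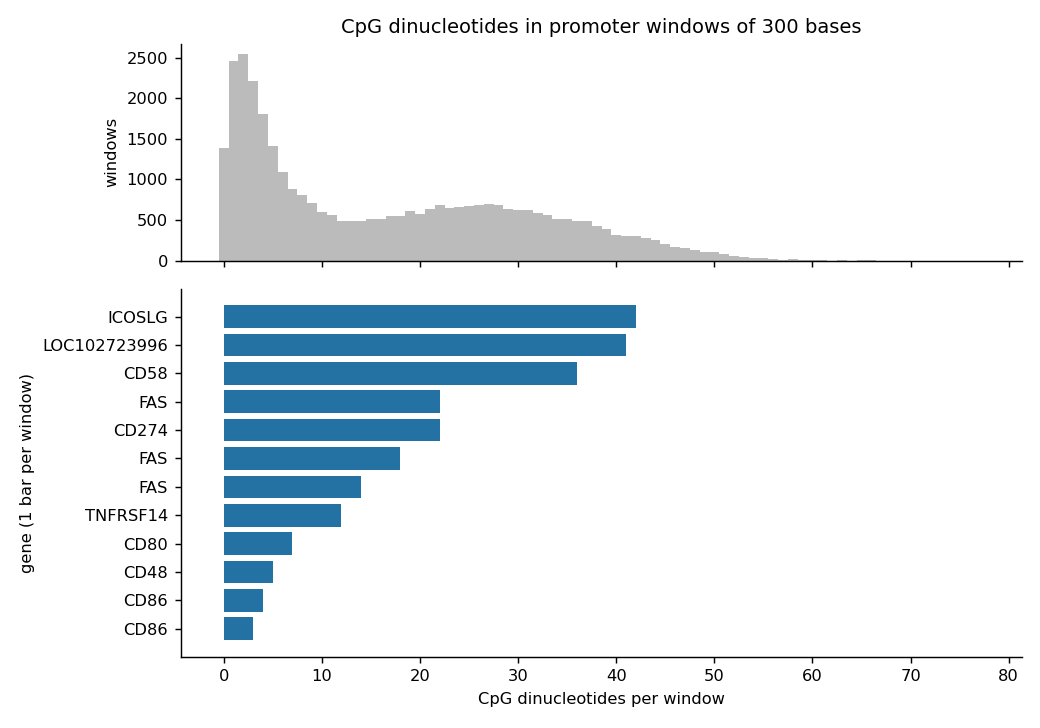
The upper panel gives the number of promoter windows of 300 bases at each number of CpG dinucleotides (x axis), over all 35116 windows, and the lower panel the number in each window of 8 of the genes and of LOC102723996. CD86 and CD48 lie at 3 to 5 CpG, CD80 at 7, TNFRSF14 at 12 and FAS and CD274 at 14 to 22, while CD58, LOC102723996 and ICOSLG lie at 36 to 42.

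Among the remaining windows, the 2 of CD86 held 3 and 4 CpG, that of CD80 held 7, that of TNFRSF14 held 12, the 3 of FAS held 14 to 22 and that of CD274 held 22. The NF-kB consensus, the DNA word bound by the transcription factors that CD40 activates, was searched on both strands with overlapping matches counted. The matches, summed over both strands, were 5 in the TNFRSF14 window, 3 in 1 CD86 window and 2 in 1 FAS window, and 11.3% of all windows held any. A site that matches on both strands counts as 2 matches, so these are not numbers of separate sites. The interferon-type word of GAAA, any 2 bases and GAAA again, searched the same way, occurred 2 times in the CD274 window and in 3.57% of all windows.

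CD40, the receptor that carries T cell help into the B cell, spans 46118272 to 46129863 of chromosome 20, plus strand (GRCh38, GENCODE 29, ENSG00000101017.13). It stood at 143 and 154 normalised CPM in the EZH2 mutant libraries, at 236, 236 and 228 in KMT2D mutant libraries, at 155, 162 and 152 in double mutant libraries, and at 174, 192 and 202 in wild type. All 5 libraries with mutant EZH2 lay below all 6 libraries with unmutated EZH2, which 10.8% of all tested genes also did (24.3% in either direction). CD40 is the 1 tested gene of the 10 with that order. The sums of the germinal centre markers given above were lower in the same 5 libraries, and their part in the level of CD40 was not tested. In a bulk sample, fewer cells of a type and less RNA per cell cannot be told apart.

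Set against the KMT2D mutant, the double mutant had less CD40. It fell to 157 ± 5.43 normalised CPM in double mutant libraries (SD, n = 3), against 234 ± 4.68 in the KMT2D mutant (n = 3). The log2 fold change was -0.58 (SE 0.12, 95% interval -0.82 to -0.33), with adjusted p = 0.000665 in the quasi-likelihood test of edgeR, by Benjamini-Hochberg over all genes, and CD40 was called in all 19 alternative analyses. It was the only call among the 4 tested genes in that comparison, in which 41.9% of all tested genes were called (21.2% higher, 20.8% lower), and the 1 gene whose libraries did not overlap, against 53.3% of all genes (26.3% higher, 27% lower). A share of 1 in 4 is therefore no more than the background. The EZH2 mutant averaged 149 ± 7.78 (n = 2), against 189 ± 14.5 in wild type (n = 3). That difference, log2 -0.34 (SE 0.13), lay at the threshold, with adjusted p = 0.0558 in edgeR. It passed in 9 of 19 alternatives, among them RLE factors (0.046), upper-quartile factors (0.00577) and the set without wild type replicate 1 (0.0382), and ranged up to 0.266 in the others. The remaining library sets that gave a pass left out KMT2D mutant replicate 1, 2 or 3 (0.044, 0.0487 and 0.0442) or double mutant replicate 1 or 3 (0.0378 and 0.0413).

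CD40 was higher in each KMT2D mutant library than in each wild-type library, at log2 0.30 (SE 0.11), but did not pass the test (edgeR adjusted p = 0.128). Each double mutant library lay below each wild-type library, at log2 -0.28 (SE 0.12), and did not pass either (edgeR adjusted p = 0.0942). Between the double mutant and the EZH2 mutant the libraries overlapped and the log2 difference was 0.07 (95% interval -0.22 to 0.35). The interaction, which asks whether 1 mutation acts differently in the presence of the other, was -0.23 (95% interval -0.60 to 0.14; edgeR adjusted p = 0.581).

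**Figure D2:**
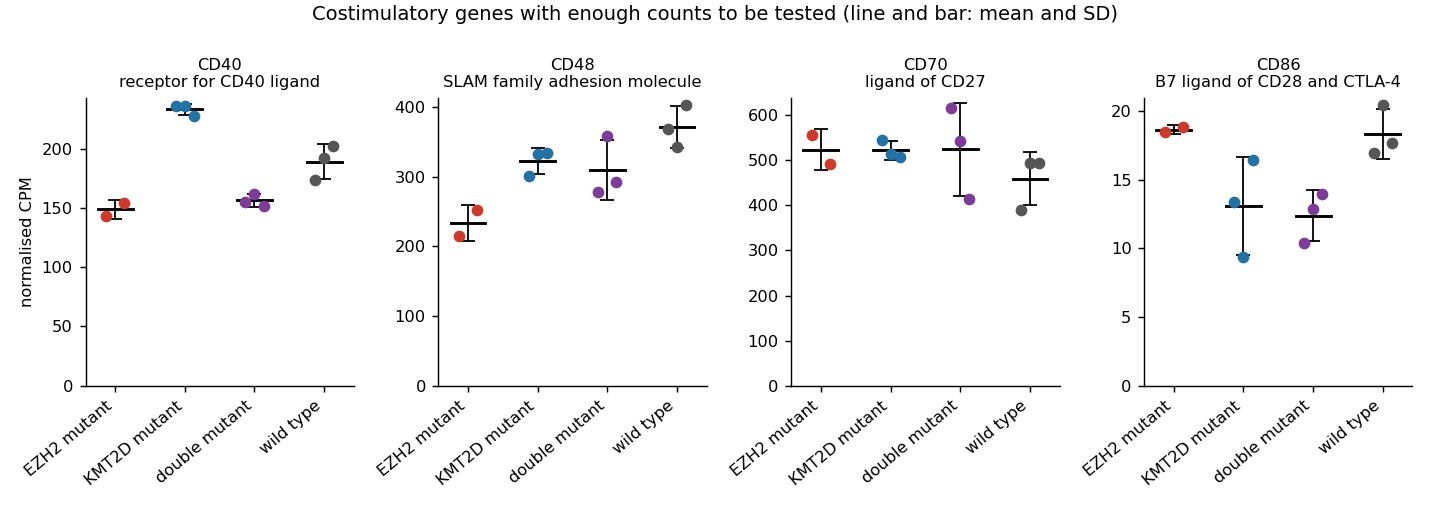
Each panel plots normalised CPM (y axis, from 0) of 1 gene in every library, with the EZH2 mutant (n = 2), KMT2D mutant, double mutant and wild type (n = 3 each) from left to right; the line and bar give the mean and SD. CD40 libraries sit at 143 to 162 in both lines with mutant EZH2, at 228 to 236 in the KMT2D mutant and at 174 to 202 in wild type, and CD48 lies lowest in the EZH2 mutant, at 215 and 252.

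CD48, an adhesion molecule of the SLAM family that binds CD244 and, more weakly, CD2, spans 160678746 to 160711851 of chromosome 1, minus strand (ENSG00000117091.9). It stood at 215 and 252 normalised CPM in the EZH2 mutant, at 301, 332 and 335 in KMT2D mutant libraries, at 278, 359 and 293 in double mutant libraries, and at 369, 343 and 404 in wild type. The EZH2 mutant libraries lay below all 9 others, as did 7.99% of all tested genes (18.2% in either direction, 10.3% higher). The mean was 234 ± 26.2 (SD, n = 2) in the EZH2 mutant and 372 ± 30.6 (n = 3) in wild type, a log2 fold change of -0.66 (SE 0.15, 95% interval -0.97 to -0.36) with edgeR adjusted p = 0.0020. CD48 thus fell in the EZH2 mutant, and in all 19 alternatives, with log2 values from -0.84 to -0.54 and a highest adjusted p of 0.037.

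CD48 was the only one of the 4 tested genes called between the EZH2 mutant and wild type, where 32.3% of all tested genes were called (17.1% higher, 15.1% lower). CD40 and CD48 were the 2 whose libraries did not overlap there, against 55% of all genes (27.2% higher, 27.7% lower). CD48 averaged 310.0 ± 42.9 normalised CPM in double mutant libraries, against 372 ± 30.6 in wild type (n = 3 each), and the difference did not pass (log2 -0.26, SE 0.13; edgeR adjusted p = 0.139). Each double mutant library lay above both EZH2 mutant libraries, at log2 0.40 (SE 0.15), again without passing (edgeR adjusted p = 0.178). The KMT2D mutant averaged 323 ± 19.0, with all libraries below wild type, at log2 -0.21 (95% interval -0.47 to 0.06; edgeR adjusted p = 0.377). The interaction was 0.60 (SE 0.19), with an unadjusted p of 0.0052 and edgeR adjusted p = 0.104, and it stayed above the threshold in all 18 alternatives, from 0.055 to 0.254. A smaller fall of CD48 in the presence of the KMT2D mutation was thus not shown at this number of libraries.

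CD86, the B7 ligand that B cells present to CD28 and CTLA4, spans 122055366 to 122121139 of chromosome 3, plus strand (ENSG00000114013.15). It had 14 to 60 counts per library. The libraries stood at 18.4 and 18.9 normalised CPM in the EZH2 mutant, at 13.4, 9.40 and 16.5 in KMT2D mutant libraries, at 10.4, 12.8 and 13.9 in double mutant libraries, and at 17.0, 20.4 and 17.6 in wild type. Each library with the KMT2D mutation lay below each library without it, an order seen after the values were known and held by 0.499% of all tested genes (0.783% in either direction, 0.284% higher). The closest pair was KMT2D mutant replicate 3 at 16.5 (43 of 2463619 counts) and wild type replicate 1 at 17.0 (30 of 1748860 counts). Without TMM scaling the order of these libraries turns, so the order over all libraries depends on the scaling. The log2 difference was -0.45 (95% interval -0.95 to 0.04) for KMT2D mutant and -0.58 (95% interval -1.12 to -0.05) for double mutant libraries, both against wild type, and -0.60 (95% interval -1.23 to 0.02) in the double mutant against the EZH2 mutant. None passed, with edgeR adjusted p = 0.290 for the KMT2D mutant and 0.105 for the double mutant against wild type, and 0.352 for the double mutant against the EZH2 mutant. In the EZH2 mutant against wild type it was 0.02, with a 95% interval of -0.56 to 0.60. CD86 is also a gene of myeloid cells. The sum of 12 myeloid and dendritic markers was 12.5 to 12.8 CPM in EZH2 mutant, 11.5 to 16.2 in KMT2D mutant, 4.94 to 6.46 in double mutant and 19.4 to 33.9 in wild-type libraries, with CSF1R, ITGAX, FCGR3A, CLEC9A, S100A8 and S100A9 at 0 in every library. Of these 12 markers only 1 had enough counts to be tested, and 7 or 8 were at 0 in each line. The part of that sum in the level of CD86 was not tested.

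CD70, the ligand of CD27, spans 6583183 to 6604103 of chromosome 19, minus strand, on the short arm (ENSG00000125726.10). It stood at 556 and 492 normalised CPM in the EZH2 mutant, at 546, 514 and 507 in KMT2D mutant libraries, at 617, 542 and 414 in double mutant libraries, and at 391, 493 and 495 in wild type. The 3 mutant lines averaged 522 to 524, against 459.6 ± 59.5 in wild type (SD, n = 3). The KMT2D mutant libraries alone did not overlap wild type. The log2 differences from wild type were 0.19 for the EZH2 mutant, 0.18 for the KMT2D mutant and 0.19 for the double mutant, with 95% intervals that together ran from -0.14 to 0.52, and none passed (edgeR adjusted p = 0.383, 0.497 and 0.357). These 3 comparisons share the wild-type libraries. The double mutant against the EZH2 mutant gave log2 0.00 (95% interval -0.33 to 0.34) and against the KMT2D mutant 0.01 (95% interval -0.29 to 0.30), signs that turned under several alternatives. CD27, the receptor of CD70 on T cells and on memory B cells, was read in every line, at 124 ± 34.5 normalised CPM in EZH2 mutant libraries (n = 2), and 92.6 ± 17.4 in KMT2D mutant, 91.6 ± 3.50 in double mutant and 115 ± 7.72 in wild-type libraries (n = 3 each), with no call in any comparison.

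**Figure D3:**
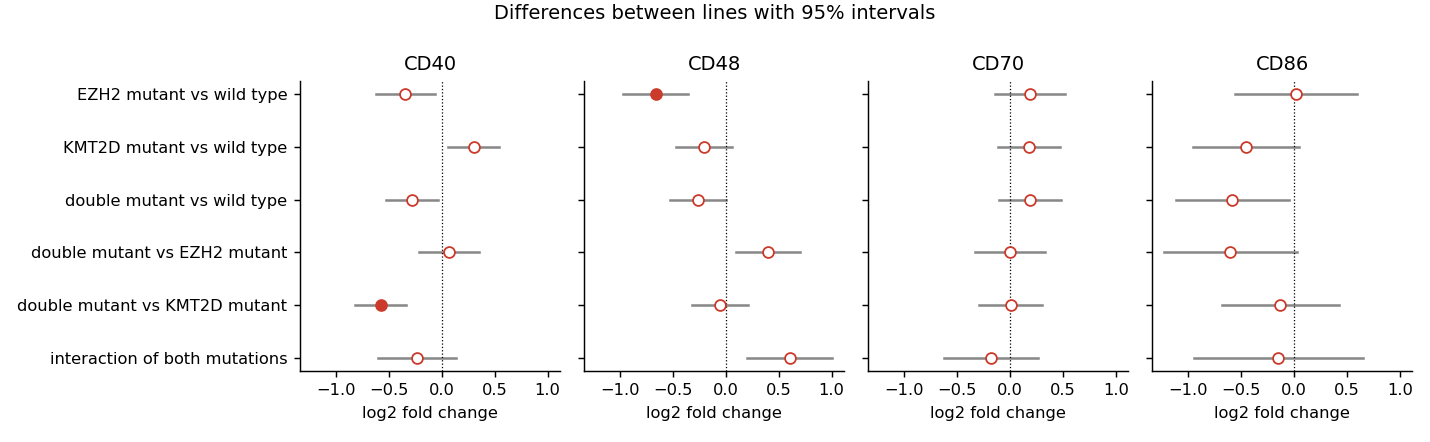
Log2 fold change (x axis) of CD40, CD48, CD70 and CD86 in 5 comparisons of lines and the interaction (y axis), with 95% intervals as bars; filled points passed edgeR's test at an adjusted p of 0.05. CD48 in the EZH2 mutant against wild type (-0.66) and CD40 in the double mutant against the KMT2D mutant (-0.58) are the 2 filled points, and all 6 intervals of CD70 hold 0.

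By comparison, then, the 4 tested genes gave few calls. Against wild type, edgeR called 1 in the EZH2 mutant, 0 in the KMT2D mutant, where 7.66% of all tested genes were called (3.18% higher, 4.48% lower), and 0 in the double mutant, where 23.7% were (12.1% higher, 11.6% lower). At an unadjusted p under 0.05 the KMT2D mutant had 1 (CD40), beside 1852 of all 8813 genes, and the double mutant 3 (CD40, CD48 and CD86), beside 3142 of all genes, and DESeq2 and limma-voom called 0 in both. All 4 had non-overlapping libraries between the KMT2D mutant and wild type, CD40 and CD70 higher and CD48 and CD86 lower, against 26.9% of all genes (13% higher, 13.8% lower). Between the double mutant and wild type CD40 and CD86 did not overlap, both lower, against 38.3% of all genes (19.9% higher, 18.4% lower). The double mutant against the EZH2 mutant gave 0 calls (2.29% of all genes, 0.715% higher and 1.58% lower; 1 at an unadjusted p under 0.05, CD48, beside 1349 of all genes; 0 in DESeq2 and limma-voom), with CD48 and CD86 not overlapping against 30.5% of all genes (13.3% higher, 17.2% lower). The interaction also gave 0 calls (3.02% of all genes, 1.5% above and 1.52% below 0; 1 at an unadjusted p under 0.05, CD48, beside 1382 of all genes; 0 in DESeq2 and limma-voom). With 4 genes, no count of calls can be set apart from the background of its comparison.

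The other 6 genes stayed below the filter, and 4 of them had at most 1 count in all 11 libraries together. CD58, the partner of CD2 on T cells (minus strand of chromosome 1, 116514535 to 116571039, ENSG00000116815.15), had 0 counts among 22567667, which allows a level of up to 0.133 CPM. CD80, the other B7 ligand of CD28 (minus strand of chromosome 3, 119524293 to 119559602), had 1 count, in wild type replicate 3. TIMMDC1, on the plus strand, overlaps 798 bases at the 3′ end of CD80 and had 16 counts in 7 libraries. Without the strand of counting, which is not given, reads in that overlap cannot be told apart. CD274, the ligand of PD-1 (plus strand of chromosome 9, 5450503 to 5470566), had 1 count, in wild type replicate 2, and ICOSLG (minus strand of chromosome 21, 44217014 to 44240966) had 1, in KMT2D mutant replicate 3. At this depth no difference between lines was detectable for these 4 genes. Depth is not the only limit for CD80, given the overlap with TIMMDC1. It may not be the only one for ICOSLG, whose promoter window shares sequence with that of LOC102723996. Intervals and floors from counts cover counting error only.

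LOC102723996, chosen after its values were seen because of the shared window printed above, was read in every library, in contrast to ICOSLG. It had 9 and 20 counts in EZH2 mutant libraries, 7, 10 and 9 in KMT2D mutant libraries, 9, 9 and 13 in double mutant libraries, and 4, 11 and 8 in wild type. It rose in the EZH2 mutant against wild type, at 9.57 ± 0.502 normalised CPM in EZH2 mutant (n = 2) against 3.02 ± 0.740 in wild-type libraries (n = 3), log2 1.61 (SE 0.48) with edgeR adjusted p = 0.0144. The call was lost without EZH2 mutant replicate 2 (adjusted p = 0.108). No other comparison passed for this gene. Where 2 genes share sequence, counting can give the reads of one to the other. The shared run was found in the promoter windows, and the 3′ ends, near which the reads lie, were not compared. The counts of ICOSLG and LOC102723996 are thus uncertain as a pair. The rise in the EZH2 mutant can therefore not be assigned to either gene alone.

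TNFRSF14, the herpesvirus entry mediator that engages BTLA, CD160 and LIGHT (plus strand of chromosome 1, 2555639 to 2565382, ENSG00000157873.17), had 15 counts in 7 libraries. They were 1 and 1 in EZH2 mutant libraries, 4, 2 and 4 in KMT2D mutant libraries, 0, 0 and 1 in double mutant libraries, and 0, 2 and 0 in wild type. Each KMT2D mutant library had at least as many as any other. By summed counts TNFRSF14 was 5.03 times as high in the KMT2D mutant as in wild type, on 10 counts against 2 (95% interval 1.07 to 47.2), and 7.60-fold lower in the double mutant than in the KMT2D mutant, on 1 count against 10 (95% interval 1.08 to 330). These intervals cover counting error and not the spread between libraries.

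TNFRSF14-AS1, on the minus strand from 2549920 to 2557031, overlaps the first 1393 bases of TNFRSF14 and was added after its values were seen. It had 2 and 3 counts in EZH2 mutant libraries, 18, 11 and 20 in KMT2D mutant libraries, 2, 0 and 0 in double mutant libraries, and 0, 4 and 2 in wild type. It rose in the KMT2D mutant against wild type at log2 2.96 (SE 0.60; edgeR adjusted p = 0.0035) and by counts stood 18.6-fold lower in double mutant than in KMT2D mutant libraries, on 2 counts, both in replicate 1, against 49 (95% interval 4.88 to 158), which also passed. Both genes thus had their highest counts in the KMT2D mutant libraries, apart from the tie at 2 counts of TNFRSF14 in wild type replicate 2. The overlap holds the 5′ ends of both genes and neither 3′ end. Whether reads were counted by strand is not given in the sources used here, so reads within the overlap cannot be told apart.

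FAS, the death receptor for Fas ligand (plus strand of chromosome 10, 88990582 to 89015785, ENSG00000026103.21), had 10 counts in 4 libraries. They were 0 and 0 in EZH2 mutant libraries, 1, 0 and 2 in KMT2D mutant libraries, 0, 0 and 0 in double mutant libraries, and 0, 3 and 4 in wild type. By summed counts, 0 counts in the EZH2 mutant against 7 in wild type gave a ratio with an exact 95% interval of 0 to 1.47, which holds 1, and 0 in the double mutant against 7 in wild type gave 0 to 0.919. The KMT2D mutant was 2.32-fold lower than wild type by summed counts, on 3 counts against 7 (95% interval 0.529 to 13.9). With no filter on low counts FAS gave its lowest adjusted p, 0.119, between the double mutant and wild type. ACTA2, the smooth muscle actin gene, overlaps the first 758 bases of FAS on the other strand, and had 0 counts in the EZH2 mutant and 33 in wild type.

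**Figure D4:**
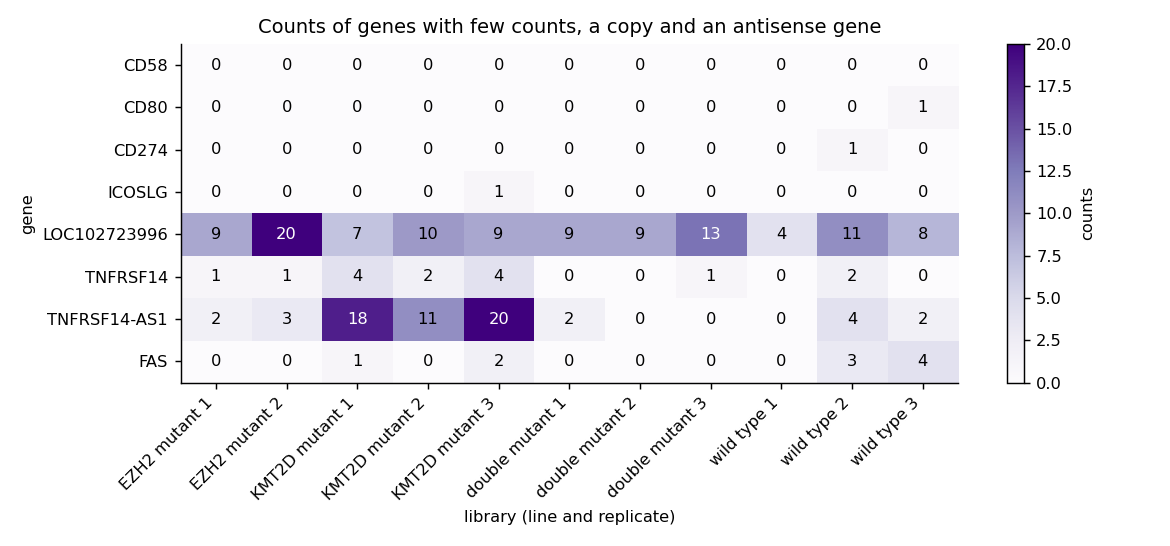
Counts per library (number and shade) of the 6 genes below the filter, of LOC102723996 and of TNFRSF14-AS1 (y axis), for the 11 libraries by line and replicate (x axis). CD58 is at 0 throughout and CD80, CD274 and ICOSLG have 1 count each, while TNFRSF14-AS1 reaches 11 to 20 and TNFRSF14 2 to 4 counts in the KMT2D mutant libraries.

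Most partners of these molecules on the T cell side had no counts in these cultures. Of 12 partner genes, 8 had 0 counts in all 11 libraries (CD40LG, CD2, CD28, CTLA4, ICOS, FASLG, PDCD1 and TNFSF14), and CD27 alone was tested.

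Signalling below the receptors was read from a list of 28 adaptors, kinases and caspases, of which 22 were tested. In the EZH2 mutant against wild type 5 rose, 4 fell and 13 did not pass, where 32.3% of all tested genes were called (17.1% higher, 15.1% lower). The list median was log2 0.01 against -0.04 over all tested genes. DAXX, a protein that binds the death domain of FAS, rose at log2 0.83, and TRAF4, an adaptor of the family that CD40 uses, rose at log2 1.08. TRAF6, the adaptor that binds CD40 next to the membrane, had 0 counts in the EZH2 mutant and 30 in wild type, at least 4.71-fold lower with a floor of 3 counts over the group (3.60-fold at the near end of the exact 95% interval of the 2 sums), a call lost without EZH2 mutant replicate 2 (edgeR adjusted p = 0.061). DAXX (log2 0.46) and TRAF4 (log2 0.86) also rose in the double mutant against wild type, where 23.7% of all tested genes were called. The other 20 did not pass. DAXX lost that call without wild type replicate 3 (adjusted p = 0.0656). In the KMT2D mutant against wild type, where 7.66% of all tested genes were called, TRAF5 rose (log2 0.80, adjusted p = 0.0538 without KMT2D mutant replicate 3). MAP3K14, the NIK kinase, fell there (log2 -0.56). The MAP3K14 call was lost in DESeq2 and without wild type replicate 1 or any 1 KMT2D mutant library, with adjusted p up to 0.156. The double mutant against the KMT2D mutant had 4 higher and 3 lower, where 41.9% of all tested genes were called. TRAF4 was at log2 1.51, TRAF5 at -1.08 and DAXX at 0.53. TRAF6 alone was called in the double mutant against the EZH2 mutant, where 2.29% of all tested genes were called. It was at least 4.58-fold higher with the same floor, on 22 counts in the double mutant against 0 in the EZH2 mutant (3.42-fold at the near end of the exact 95% interval), and lost the call in 6 of 16 alternatives, which were DESeq2 (adjusted p = 0.0556), the replicate block (0.0692) and the sets without EZH2 mutant replicate 1 (0.102) or 2 (0.174) or double mutant replicate 2 (0.0695) or 3 (0.0578).

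Genes known to respond to CD40 ligation in B cells form a list of 26, of which 18 were tested. The lists overlap, since TRAF1, CFLAR and BIRC3 are also in the signalling list. ICAM1 and CD83 are also among the other costimulatory, inhibitory and adhesion molecules, so a call of such a gene counts in both lists. Against wild type 10 fell, 2 rose and 6 did not pass in the EZH2 mutant, where 15.1% of all tested genes were called lower and 17.1% higher, with a list median of log2 -0.76 against -0.04 over all genes. LTB, a lymphotoxin subunit, fell to 203 ± 36.9 normalised CPM (n = 2), against 392 ± 10.3 in wild type (n = 3), log2 -0.96 (SE 0.15). The other log2 fold changes below 0 that passed were those of REL (-1.86), LTA (-1.49), TNFAIP3 (-1.37), JUNB (-0.89), CFLAR (-0.83), CD83 (-0.83), RELB (-0.77), BCL2L1 (-0.75) and IRF4 (-0.67). FCER2, the IgE receptor CD23, rose at log2 2.29, and NFKBIE, an inhibitor of NF-kB, at log2 0.92. The double mutant against wild type had 7 lower, 2 higher and 9 that did not pass (list median -0.41 against -0.01), where 23.7% of all tested genes were called. LTB was at log2 -1.85, CD83 at -1.08 and FCER2 at 1.64. The germinal centre marker sums given above were lower in both lines with mutant EZH2, and their part in these values was not tested. The list was drawn up with this fall already known, so its count is no independent evidence of the direction.

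In the KMT2D mutant against wild type 1 gene of that list rose and 1 fell, and 16 did not pass, where 7.66% of all tested genes were called. CD83 rose at log2 0.57, a call lost in 10 of 19 alternatives, which were DESeq2 (adjusted p = 0.137), no filter (0.088), the replicate block (0.0552), and the sets without wild type replicate 1 (0.156), 2 (0.0775) or 3 (0.0651), KMT2D mutant replicate 1 (0.103), 2 (0.122) or 3 (0.116), or double mutant replicate 2 (0.0523). RELB, an NF-kB subunit, fell at log2 -0.70. RELB lies on chromosome 19 at 45001430, in the stretch from ZNF383 to the end of the chromosome whose 303 tested genes had a median of log2 -0.81 in the KMT2D mutant against wild type, with 94.1% of them below 0. The part of that stretch in the value of RELB was not tested. Between the double mutant and the KMT2D mutant 3 were higher and 7 lower, where 41.9% of all tested genes were called. LTB was at log2 -1.77, CD83 at -1.66 and FCER2 at 1.41. In the double mutant against the EZH2 mutant LTB alone was called, lower at log2 -0.90, where 2.29% of all tested genes were called.

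Other costimulatory, inhibitory and adhesion molecules of B cells form a list of 41 genes, of which 22 were tested. Against wild type 3 rose and 6 fell in the EZH2 mutant, 3 rose and 1 fell in the KMT2D mutant, and 2 rose and 8 fell in the double mutant, where 32.3%, 7.66% and 23.7% of all tested genes were called in the same order of lines. The list median was log2 -0.09 in the EZH2 mutant (all genes -0.04), 0.24 in the KMT2D mutant (all genes 0.00) and -0.36 in the double mutant (all genes -0.01). ITGB2, the beta chain of the integrin LFA-1, fell to 4.03 ± 0.0887 normalised CPM in the EZH2 mutant (n = 2) and to 2.22 ± 0.954 in the double mutant (n = 3), against 19.6 ± 4.24 in wild type (n = 3), which are log2 changes of -2.28 in the EZH2 and -3.15 in the double mutant. TNFSF8, the ligand of CD30, fell at log2 -1.71 in the EZH2 mutant and -1.83 in the double mutant. CD72, an inhibitory coreceptor of B cells, rose at log2 1.08 in the EZH2 mutant and 0.84 in the double mutant. In the KMT2D mutant the butyrophilin gene BTN3A2 rose at log2 0.78 and LGALS9, which encodes galectin 9, at log2 1.52, while the SLAM family gene LY9 fell at log2 -0.62. LGALS9 and BTN3A2 have close paralogs, so their counts are uncertain. The LGALS9 call was lost in DESeq2 (adjusted p = 0.0616) and without wild type replicate 1 (0.0586) or 2 (0.0773) or KMT2D mutant replicate 1 (0.0592) or 3 (0.0575), and that of LY9 without wild type replicate 1 (0.094) or KMT2D mutant replicate 1 (0.084) or 3 (0.153).

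Between the double mutant and the KMT2D mutant 2 of these 22 genes rose and 10 fell, where 41.9% of all tested genes were called (21.2% higher, 20.8% lower). The list median was log2 -0.48 against -0.02 over all genes. ITGB2 was at log2 -3.72 and CD83, a marker of activated B cells, at -1.66. LGALS9 was 21.3-fold lower on 3 counts against 84 (95% interval 7.03 to 105). Between the double mutant and the EZH2 mutant, where 2.29% of all tested genes were called, 1 gene of the list was called, TNFRSF13B, the receptor TACI. It had 4 counts in the double mutant and 27 in the EZH2 mutant (log2 -3.43, and -2.70 without double mutant replicate 1; edgeR adjusted p = 0.0252), and lost the call with limma-voom (0.0602), with the replicate block (0.0668), with only the groups compared (0.0518), and without EZH2 mutant replicate 1 (0.0841) or 2 (0.0755) or double mutant replicate 1 (0.084) or 3 (0.0786).

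**Figure D5:**
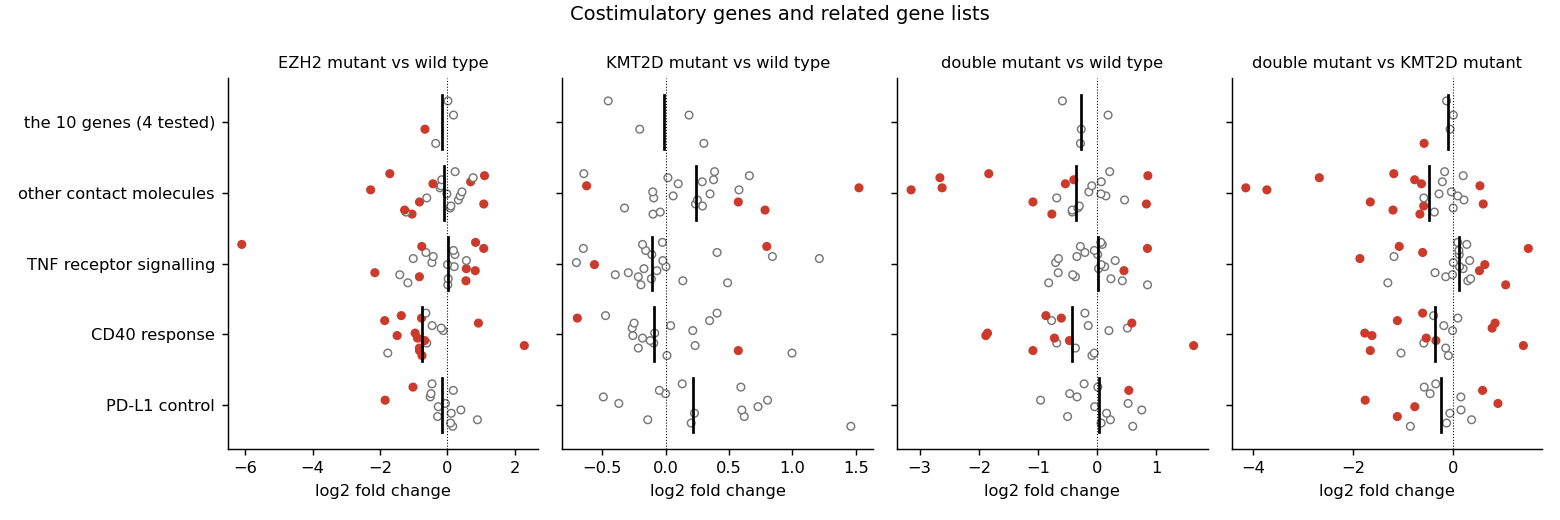
Log2 fold change (x axis) of each tested gene in the 4 tested genes described here and in 4 related lists (y axis), in 4 comparisons; filled points passed edgeR's test at an adjusted p of 0.05 and the black line is the list median. The row named CD40 response holds the genes known to respond to CD40 ligation, in untreated cells, so no response was measured. Its median is -0.76 in the EZH2 mutant and -0.09 in the KMT2D mutant, both against wild type. The point near -6 is the fitted value of TRAF6, which had 0 counts in the EZH2 mutant and whose fitted size is no bound.

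Genes that set the level of PD-L1 form a list of 19, with 14 tested. JAK1, a kinase of the interferon receptors, fell in the EZH2 mutant against wild type at log2 -1.85. EdgeR called 32.3% of all tested genes there. DESeq2 and limma-voom called 0 of the 14 there, against 2350 and 2631 of all 8813 genes. Leaving out 1 EZH2 mutant library gave -1.29 (replicate 1 out) and -4.28 (replicate 2 out). JAK1 lost the call in 11 of 18 alternatives, which were DESeq2 (adjusted p = 0.0698), limma-voom (0.102), the replicate block (0.0949) and the sets without any 1 wild-type or KMT2D mutant library, EZH2 mutant replicate 1 or double mutant replicate 1 (adjusted p up to 0.227, without EZH2 mutant replicate 1). In the KMT2D mutant against wild type edgeR, DESeq2 and limma-voom called 0 of the 14, and 4 had an unadjusted p under 0.05 in edgeR, which called 7.66% of all tested genes. Between the double mutant and the EZH2 mutant the same tools called 0, and 1 had an unadjusted p under 0.05, where edgeR called 2.29% of all tested genes. SPOP, a ubiquitin ligase adaptor for PD-L1, rose in the double mutant against wild type at log2 0.54. EdgeR called 23.7% of all tested genes in that comparison. The SPOP call was lost in 10 of 19 alternatives, also without wild type replicate 2 or 3 or any 1 double mutant library. Its edgeR adjusted p ran up to 0.142, without wild type replicate 3. Set against the KMT2D mutant, 2 of the 14 rose and 3 fell in the double mutant, where 41.9% of all tested genes were called. JAK1 was at log2 -1.76 (-2.37 without double mutant replicate 3), SPOP at 0.59 and IRF9 at 0.90. SPOP lost that call without double mutant replicate 3 (adjusted p = 0.0532), and IRF9 without KMT2D mutant replicate 1 (0.0676) or double mutant replicate 1 (0.117). CD274 itself had 1 count in all, so no level of it can be set beside these values.

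Likeness of pattern was measured as Pearson's r of log2 CPM over the 11 libraries, among 6519 tested genes with a mean of at least 10 CPM, and is a description of libraries that share lines and depth. The genes most like CD40 were PRKAR2A (r = 0.976), MND1 (0.970) and ADM2 (0.970), and PRKAR2A averaged 13.6 normalised CPM in EZH2 mutant, 31.6 in KMT2D mutant, 15.6 in double mutant and 20.5 in wild-type libraries. The genes most like CD48 were FRAT2 (0.958), NEK2 (0.912) and PPP1R21 (0.909), and FRAT2 averaged 15.6 normalised CPM in EZH2 mutant, 23.8 in KMT2D mutant, 21.7 in double mutant and 25.1 in wild-type libraries. Those most like CD86 were OR13A1 (0.850), LINC01480 (0.846) and PLP2 (0.837). The line means of log2 CPM spanned 0.67 for CD48, 0.65 for CD40, 0.56 for CD86 and 0.19 for CD70.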

How the data were processed

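Per the labels, RNA of untreated cells was made into barcoded cDNA libraries, and the authors deposited a table of counts per gene. The table calls its counts corrected without saying for what. The submitters' processing notes name Trim Galore 0.6.0, cutadapt 1.15, FastQC, STAR 2.7.0f and DESeq2, and the counting program, genome build and strand are not given in the sources used here. Of 12 samples listed, 11 have a column, and replicate 3 of the EZH2 mutant was not analysed here. The DM columns were assigned to the double mutant, the only line that name fits.

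Testing of the counts used edgeR 4.0.16 under R 4.3.3 (filterByExpr with a minimum count of 10, library sizes over the kept genes, TMM factors, robust quasi-likelihood fit with 1 term per line over all 11 libraries). P-values were adjusted by Benjamini-Hochberg over all 8813 tested genes within each comparison, with a threshold of 0.05. Normalised CPM uses the TMM-scaled library sizes, and log2 CPM a prior count of 2. Low genes were compared by summed counts with exact 95% intervals. The fit was also run on simulated counts with few changed genes, unlike these data, and no result here rests on that run. The alternatives tried were upper-quartile or RLE factors, no filter, a strict filter (at least 10 counts in every library), DESeq2 1.42.0, limma-voom (limma 3.58.1), a replicate block, only the groups compared, and leaving out each library.

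The genes and lists were chosen with earlier results of these data known. From each other list up to 3 called genes with the smallest adjusted p per comparison are named, and others were named after their values were seen. The result of 1 gene that this rule names is not reported here. For CD40, CD48 and CD86, the 3 with the widest range of line means, the 3 most similar genes are named. Within lines, counts differed by more than sampling noise (chi-square per degree of freedom 3.36 to 8.89), so no 2 columns were taken as the same library, although this does not show separate cultures. Gene places are from GENCODE 29 and promoter windows from RefSeq on GRCh38.p14. Tables used pandas 2.3.3 and numpy 2.4.6, and figures matplotlib 3.10.9, under Python 3.11.15.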

Additional observations from a re-analysis of the deposited data

Results flagged for a closer look

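None of the 4 tested genes (CD40, CD48, CD70 and CD86) passed the test of a difference in its response to 1 mutation by the presence of the other at an adjusted p of 0.05. In the related lists 4 genes did, by the interaction term of edgeR's quasi-likelihood model with Benjamini-Hochberg adjustment, as did 3.02% of all tested genes. LGALS9 had an interaction of log2 -3.93 (adjusted p = 0.0215), and it had 10 counts in the EZH2 mutant, 84 in the KMT2D mutant, 3 in the double mutant and 29 in wild type. The adjusted p of LGALS9 was 0.0521 without EZH2 mutant replicate 1, 0.09 without EZH2 mutant replicate 2 and 0.0533 without double mutant replicate 3. TRAF6 had an interaction of log2 6.38 (adjusted p = 0.0347), fitted against 0 counts in the EZH2 mutant and so no bound, with 27 counts in the KMT2D mutant, 22 in the double mutant and 30 in wild type; the call held in 7 of 16 alternatives and not in DESeq2 (0.0662), with the replicate block (0.0639) or without any 1 KMT2D mutant or EZH2 mutant library or double mutant replicate 2 or 3, with an adjusted p of up to 0.217 without EZH2 mutant replicate 2. RELB had an interaction of log2 0.862 (adjusted p = 0.0259), and the 303 tested genes of its stretch of chromosome 19 had a median interaction of 0.80. The RELB call was lost without KMT2D mutant replicate 1 (0.0691), EZH2 mutant replicate 2 (0.092) or double mutant replicate 2 (0.08). LTB had an interaction of log2 -0.808 (adjusted p = 0.0285), at 203 ± 36.9 normalised CPM in the EZH2 mutant (n = 2), and 369 ± 12.1 in the KMT2D mutant, 108 ± 15.5 in the double mutant and 392 ± 10.3 in wild type (n = 3 each). The LTB call was lost without KMT2D mutant replicate 1 (0.0762) or 3 (0.0526), EZH2 mutant replicate 1 (0.116) or double mutant replicate 3 (0.0828).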

How the results depend on the processing

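The calls of CD48 in the EZH2 mutant against wild type and of CD40 in the double mutant against the KMT2D mutant held under all 19 alternatives. In the EZH2 mutant against wild type 2 of the 4 genes were called, CD40 besides CD48, with RLE factors, upper-quartile factors and the strict filter, and 1 to 2 when 1 library was left out. Over all genes, RLE factors called 2829 of 8813 there, upper-quartile factors 2777 of 8813 and the strict filter 1991 of 5749. In the KMT2D mutant against wild type the strict filter called 1 (CD40), beside 549 of 5749 genes. In the double mutant against wild type upper-quartile factors called 2 (CD40 and CD48), beside 2046 of 8813 genes. The strict filter called 3 (also CD86), beside 1473 of 5749 genes. In the EZH2 mutant against wild type the strict filter moved CD40 to log2 -0.52 from -0.34 and CD86 to -0.15 from 0.02. Upper-quartile factors moved the median of all genes in the EZH2 mutant against wild type to -0.20, against -0.04 with TMM, and split the calls into 1015 higher and 1762 lower, against 1511 and 1335. The split was 728 and 1318, against 1068 and 1019, in the double mutant against wild type, and 1342 and 2300, against 1864 and 1831, in the double mutant against the KMT2D mutant. Libraries with the same replicate number did not deviate together (r of deviations from the line means -0.289 to 0.376 over 15 pairs), so the numbers were not taken as pairs. The replicate block changed no call of the 4 genes and gave 2445, 629, 2002, 151, 3630 and 230 calls over all genes in the 5 comparisons and the interaction, in the order of the report's interval plot.

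Calls over all genes in the double mutant against the EZH2 mutant, 202 in the report, were 381 with no filter, 131 with the strict filter and 92 with only the groups compared, and 99 (without double mutant replicate 3; 102 without EZH2 mutant replicate 1) to 242 with 1 library left out. They were 2422 with the strict filter in the double mutant against the KMT2D mutant, and 482 with no filter for the interaction. With 1 library left out they were 1779 (without EZH2 mutant replicate 1) to 2874 in the EZH2 mutant, 339 (without KMT2D mutant replicate 3; 347 without its replicate 1 and 446 without wild type replicate 1) to 802 in the KMT2D mutant and 1381 (without double mutant replicate 1) to 2286 in the double mutant, all against wild type, and 147 (without EZH2 mutant replicate 2; 153 and 159 without KMT2D mutant replicate 1 and 3) to 309 for the interaction.

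Signs turned where values were near 0. For CD70 in the double mutant against the EZH2 mutant the log2 difference was -0.0088 with RLE factors, -0.0034 with no filter, -0.0083 with DESeq2 and -0.010 with limma-voom, and -0.092 to 0.17 with 1 library left out. For CD70 in the double mutant against the KMT2D mutant it was -0.021 with RLE factors, -0.14 with upper-quartile factors, -0.024 with no filter, -0.16 with the strict filter, -0.021 with DESeq2, -0.013 with limma-voom, -0.0016 with the replicate block and -0.037 with only the groups compared, and -0.14 to 0.12 with 1 library left out. For CD86 in the EZH2 mutant against wild type it was -0.00086 with RLE factors, -0.15 with upper-quartile factors, -0.027 with no filter, -0.15 with the strict filter and -0.017 with only the groups compared, and -0.033 to 0.053 with 1 library left out. With 1 library left out, CD40 in the double mutant against the EZH2 mutant ran from -0.0026 to 0.13, CD48 in the double mutant against the KMT2D mutant from -0.17 to 0.0019, CD86 in that comparison from -0.30 to 0.028, and the CD86 interaction from -0.30 to 0.050. The cause was not tested. Where 1 EZH2 mutant library was left, it was assumed to vary like the other lines. The interaction needs all 4 lines, so it has no fit over fewer groups. The depth of 1118710 to 3107871 counts limits what can be said of CD58, CD80, CD274, ICOSLG, TNFRSF14 and FAS. For CD80 the overlap with TIMMDC1 is a further limit, and for ICOSLG the promoter sequence shared with LOC102723996 may be one.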
